A study of Mus musculus with 4 samples.

Results

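The genes followed here encode matricellular proteins, elastic fibre proteins and the fibroblast protease Fap, namely Postn, Tnc, Sparc, Fn1, Fbln5, Fbln1, Fbn1, Eln, Fap and Thbs2. They were taken as a fixed list of 10 symbols, and the probe set with the highest mean over the 4 arrays stood for each gene. Of these, 9 had a value among 19938 genes, each from 1 probe set, and Fbn1 (fibrillin 1) was not analysed here. RNA came from bone marrow stromal cells of C57BL/6 mice whose nestin promoter drives a green fluorescent protein (Nes-gfp), sorted as reporter-positive and negative for CD45, CD31 and Ter119. The MPN group (myeloproliferative neoplasm, 3 mice) had received bone marrow with the Mx1-cre;JAK2-V617F genotype, Mx1-cre being an interferon-inducible Cre that is widely used in blood cells. The control mouse (n = 1) had received control bone marrow, and both groups were sampled 10 weeks after transplantation. The sources used here do not say how the control donor was bred or how Cre was induced. Each array is labelled as 1 mouse, and the measurement is a log2 expression value that the authors made with RMA (robust multi-array average).

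Matricellular proteins are secreted into the matrix and act mostly on how cells attach and signal, while elastic fibres give tissue its recoil. An elastic fibre forms when elastin is laid on a scaffold of fibrillin microfibrils, with fibulins guiding the assembly and lysyl oxidases crosslinking the elastin. In bone marrow, stromal and bone-lining cells make much of this matrix, and myeloproliferative neoplasms are known for remodelling it as marrow fibrosis develops.

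Of the 9 measured genes, 5 lay lower in MPN than in the control mouse on each of the 3 MPN arrays, as did 21.1% of all genes. These 5 were Postn, Fap, Tnc, Fbln5 and Sparc. Their mean log2 differences ran from -5.20 for Postn to -2.04 for Sparc. Postn in 2 MPN mice and Fap in 1 lay under the background limit (a log2 value of 5.21), so the size of these differences is uncertain. Fn1, Thbs2, Fbln1 and Eln showed no difference of that size, with mean differences between -0.60 and 0.51. All 5 were at least 2-fold lower on each MPN array, a size reached by 5.78% of all genes and by 9.36% of the 11966 genes above the background limit in either group. That limit is the 95th percentile of 1194 olfactory and vomeronasal receptor genes, and each of the 9 genes lay above it in the control mouse. None of the 9 was 2-fold higher on each MPN array, against 1.13% of all genes and 1.85% of those above the background limit. The RNA is from bulk samples, so fewer cells of a type and less RNA per cell cannot be told apart.

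The groups were tested with limma across all genes, with Benjamini-Hochberg adjustment and a threshold of 0.05. None of the 9 passed, nor did any other gene (0% of 19938), and the adjusted p of the 9 ran from 0.141 for Tnc to 0.911 for Fbln1. Cyclic loess, equal receptor gene medians and a trended robust prior brought 97, 153 and 167 genes past the threshold, with 0 of the 9 among them. At an unadjusted p under 0.05 there were 4, namely Tnc, Fbln5, Postn and Fap, all lower in MPN, where 8.63% of all genes were lower and 3.97% higher at that level. The single control array is assumed to vary like the MPN arrays, and an exact permutation of 3 arrays against 1 cannot give a p below 0.25. The median difference of the 9 genes was -2.04, against 0.18 over all genes.

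The libraries carried other signals that moved with the groups. Xist, the non-coding RNA that coats an inactive X chromosome, read 8.37, 9.31 and 9.22 in MPN mice and 3.30 in the control mouse, and the Y-linked Kdm5d was at 4.16, 4.16 and 4.14 against 7.72 (both chosen after their values were seen). Effects of the sex of the sampled cells and of the marrow received therefore cannot be told apart in this design. Nes, whose promoter drives the reporter, read 4.56, 3.92 and 4.26 in MPN mice and 4.26 in the control mouse, below the background limit. The median receptor gene used for the background limit was 0.25 higher in MPN, so small positive differences should be read against that shift.

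**Figure D1:**
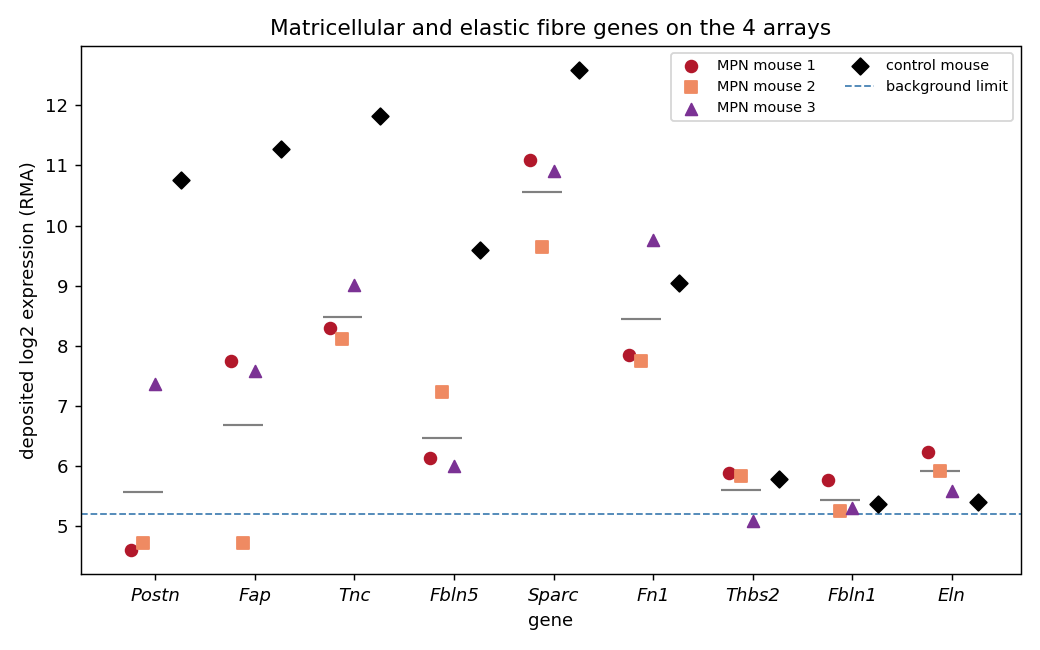
Deposited log2 expression (RMA) of the 9 measured genes on the 3 MPN arrays and the control array, ordered by mean difference, with the MPN mean as a grey bar and the background limit of 5.21 as a dashed line. In Postn, Fap, Tnc, Fbln5 and Sparc the 3 MPN mice lie below the control mouse, and in Fn1 mouse 3 lies above it.

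Postn encodes periostin, a secreted protein of periosteum and other collagen-rich tissues that binds integrins and collagen. It was at 4.60, 4.73 and 7.36 in MPN mice 1, 2 and 3 and at 10.77 in the control mouse. Mice 1 and 2 lay below the background limit, while mouse 3 had a signal above it, still 10.6-fold under the control mouse. The mean of 5.56 ± 1.56 (SD, n = 3) gave a difference of -5.20 with a standard error of 1.39 and a 95% interval from -9.36 to -1.04 (limma adjusted p = 0.319). This was the 6th lowest difference of 19938 genes. The size is uncertain, because 2 of the 3 MPN values lie where background is.

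Tnc encodes tenascin-C, a large hexameric glycoprotein that loosens cell attachment and is made in growing, injured or remodelled tissue and in parts of the bone marrow stroma. Its values were 8.30, 8.11 and 9.01 in MPN mice and 11.83 in the control mouse. The MPN values all lay above the background limit and below the control, and their SD of 0.47 was exceeded by 19.7% of genes. The mean of 8.47 ± 0.47 (SD, n = 3) differed from the control by -3.36 (SE 0.44, 95% interval -4.68 to -2.03, limma adjusted p = 0.141), or 10.2-fold. Of the 9 genes it had the smallest adjusted p.

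Sparc encodes osteonectin, a collagen- and calcium-binding protein abundant in bone. It was at 11.09, 9.65 and 10.91 in MPN mice and at 12.59 in the control mouse. Mouse 2 stood lowest, 7.65-fold under the control, while mice 1 and 3 were 2.81-fold and 3.20-fold under it. The mean difference was -2.04 (SE 0.71), and its 95% interval from -4.16 to 0.09 included 0 (limma adjusted p = 0.409).

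Thbs2 encodes thrombospondin 2, an inhibitor of angiogenesis that also affects collagen fibril assembly. Its values were 5.88, 5.84 and 5.09 in MPN mice and 5.78 in the control mouse. The control value lay among those of the MPN mice, close to the background limit. The difference was -0.18 with a 95% interval from -1.43 to 1.08 (limma adjusted p = 0.838), so a 2-fold difference either way lies within the interval.

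Fn1 encodes fibronectin, the adhesive glycoprotein on which cells assemble a provisional matrix. It was at 7.84, 7.75 and 9.76 in MPN mice and at 9.05 in the control mouse. Mice 1 and 2 were 2.31-fold and 2.46-fold below the control, and mouse 3 was 1.64-fold above it, so the groups overlapped. The difference of -0.60 (SE 1.02, 95% interval -3.64 to 2.45, limma adjusted p = 0.776) became -1.25 without mouse 3, and 6 of the 9 genes were then at least 2-fold lower on both remaining MPN arrays. Over all 19938 genes, 1756 were 2-fold lower on those remaining arrays, against 1153 on all 3, since fewer arrays had to pass. The spread of Fn1 over the MPN mice (SD 1.14) was exceeded by 5.78% of genes.

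Of the elastic fibre genes Fbln5, Fbln1 and Eln, Fbln5 was the one at least 2-fold lower on each MPN array. It encodes fibulin 5, which binds integrins and brings elastin and lysyl oxidase-like enzymes to the microfibrils. Fbln5 was at 6.14, 7.23 and 6.01 in MPN mice and at 9.59 in the control mouse. Here mouse 2 was the highest of the MPN mice, though still 5.11-fold below the control, against 10.9-fold and 11.9-fold for mice 1 and 3. The mean of 6.46 ± 0.67 (SD, n = 3) differed by -3.13 (SE 0.61, 95% interval -4.96 to -1.29, limma adjusted p = 0.220).

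Eln encodes tropoelastin, the soluble precursor of elastin. Its values were 6.23, 5.92 and 5.58 in MPN mice and 5.41 in the control mouse, so it was the only one of the 9 genes above the control on all 3 arrays, as were 46.8% of all genes. The difference of 0.51 (SE 0.32, 95% interval -0.46 to 1.47, limma adjusted p = 0.505) stands beside the 0.25 by which the background genes were higher. Fbln1 encodes fibulin 1, a component of basement membranes and elastic fibres. It was at 5.77, 5.26 and 5.30 in MPN mice and 5.37 in the control mouse, just over the background limit in both groups, with a difference of 0.068 (95% interval -0.79 to 0.93). The direction of Fbln1 turned under 3 of 10 alternatives, so none is given.

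Fap encodes fibroblast activation protein, a surface serine protease of activated fibroblasts and of marrow stromal cells. It was at 7.76, 4.72 and 7.59 in MPN mice and at 11.28 in the control mouse. Mouse 2 lay below the background limit, so no fold is given for it, while mice 1 and 3 were 11.5-fold and 12.9-fold under the control mouse. The mean of 6.69 ± 1.71 (SD, n = 3) gave a difference of -4.59 (SE 1.52, 95% interval -9.13 to -0.04, limma adjusted p = 0.393), the 20th lowest of all genes. Both the mean and this rank include the value of mouse 2 below the limit, which leaves their size uncertain. Only 2.01% of genes had a larger SD over the MPN mice.

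**Figure D2:**
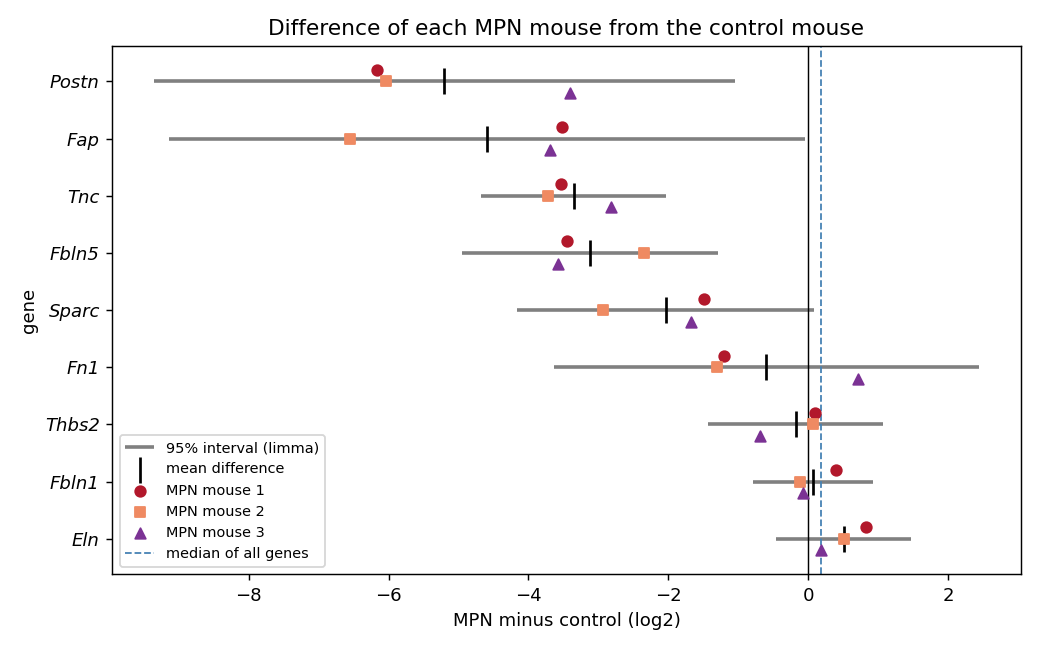
Log2 difference of each MPN mouse from the control mouse for the 9 measured genes, with the mean difference as a black tick, its 95% interval from limma as a grey bar and the median of all genes (0.18) as a dashed line. The intervals of Postn, Fap, Tnc and Fbln5 end below 0, while those of the other genes include it.

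The 5 lower genes did not share one order of the mice. The highest MPN value was in mouse 3 for Postn and Tnc, in mouse 1 for Sparc and Fap, and in mouse 2 for Fbln5. Over all 9 genes, mouse 1 was the highest for 5, mouse 2 for 1 and mouse 3 for 3, and mouse 2 was the lowest for 5. The median difference of the 9 genes was -1.49 in mouse 1, -2.35 in mouse 2 and -1.68 in mouse 3. The median SD of the 9 genes over the MPN mice was 0.67, against 0.29 for genes above the background limit in either group.

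The genes most like each of them were taken as the nearest by Euclidean distance over the 3 per-array differences from the control, among genes above the background limit. Postn lay nearest to Lifr (distance 0.44) and Plxdc2 (0.56), and Tnc to Pls3 (0.14) and Nedd4 (0.30). Sparc lay nearest to Sparcl1 (0.15), whose values were 6.43, 4.94 and 6.12 in MPN mice and 7.93 in the control mouse, and then to Sec63 (0.28). For Fbln5 the nearest genes were Cxcl14 (0.27) and Gm7265 (0.54), for Fap Adipoq (0.89) and Trps1 (0.93), and for Fn1 Glud1 (0.20) and Snap23 (0.21). For the genes near the background limit, which differed little from the control, the rule itself picks neighbours that also differ little. These were Tchh and Tm9sf1 for Fbln1, Tlcd3a and Nudt8 for Eln, and Polr3gl and Bpgm for Thbs2. These distances rest on 3 arrays that share 1 control and are a description only.

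RefSeq promoter sequences of build GRCm38.p6 were matched for 6 of the 9 measured genes, by symbol. The 250 bases before the outermost annotated start are printed for the 4 genes among them that lay lower on each MPN array, so that their letters can be compared beside the values above. The windows are chr3:54359017-54359266 on the plus strand for Postn, and on the minus strand chr4:64047016-64047265 for Tnc, chr11:55420081-55420330 for Sparc and chr12:101819120-101819369 for Fbln5. Capitals mark matches on either strand to the letters TATAAA of the TATA box, CCAAT of the CCAAT box, GGGCGG of the GC box, TGANTCA of AP-1 sites and CATTCC of TEAD sites. No match overlapped another motif's.
Postn: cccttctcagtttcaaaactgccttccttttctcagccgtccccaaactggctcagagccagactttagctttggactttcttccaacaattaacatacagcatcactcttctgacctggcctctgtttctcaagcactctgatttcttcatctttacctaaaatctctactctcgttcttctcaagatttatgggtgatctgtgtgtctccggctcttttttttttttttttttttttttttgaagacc
Tnc: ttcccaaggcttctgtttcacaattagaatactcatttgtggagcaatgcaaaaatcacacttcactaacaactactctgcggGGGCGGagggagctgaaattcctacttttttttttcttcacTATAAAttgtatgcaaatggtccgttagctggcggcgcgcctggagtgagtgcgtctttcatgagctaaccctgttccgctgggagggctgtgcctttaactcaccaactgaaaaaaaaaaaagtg
Sparc: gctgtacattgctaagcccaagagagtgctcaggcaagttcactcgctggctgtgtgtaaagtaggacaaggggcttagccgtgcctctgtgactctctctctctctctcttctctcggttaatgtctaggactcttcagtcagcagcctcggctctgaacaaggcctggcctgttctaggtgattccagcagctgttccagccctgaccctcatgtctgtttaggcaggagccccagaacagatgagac
Fbln5: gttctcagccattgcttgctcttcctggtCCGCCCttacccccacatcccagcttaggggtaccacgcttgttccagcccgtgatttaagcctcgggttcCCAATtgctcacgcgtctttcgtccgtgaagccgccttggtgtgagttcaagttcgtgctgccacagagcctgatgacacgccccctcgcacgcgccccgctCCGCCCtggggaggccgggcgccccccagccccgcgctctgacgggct

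Tnc held 1 match to TATAAA and 1 to GGGCGG, and Fbln5 held 1 to CCAAT and 2 to GGGCGG, both of these on the reverse strand. The windows of Postn and Sparc held none of the 5 motifs. Over the 32851 promoter windows in the table, TATAAA was found in 12.4%, CCAAT in 33.8%, GGGCGG in 32.7%, TGANTCA in 6.75% and CATTCC in 12.6%. The base composition differed too, with 40.4% G and C for Postn, 44.8% for Tnc, 54.0% for Sparc and 65.2% for Fbln5. No motif searched was common to the 4 windows, and these matches describe the letters alone.

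The wider elastic fibre machinery was described by a list of 24 other genes, of which 21 had a value. Counts in this list and the lists that follow stand beside these shares of all genes. On each MPN array, 5.78% were at least 2-fold lower and 1.13% at least 2-fold higher. At an unadjusted limma p under 0.05, 8.63% were lower and 3.97% higher. In this list 4 genes were at least 2-fold lower on each MPN array, Efemp1, Lox, Ltbp1 and Loxl1, and 0 were 2-fold higher, while none passed limma's adjusted test. At an unadjusted p under 0.05, 7 were lower and 1 was higher. Efemp1, which encodes fibulin 3, was at 4.90, 4.22 and 4.08 in MPN mice and 8.64 in the control mouse, a difference of -4.24 (limma adjusted p = 0.103) into the range of background. Lox, the lysyl oxidase that crosslinks collagen and elastin, was at 4.61, 4.60 and 5.26 in MPN mice and 7.53 in the control mouse, and its MPN mean lay below the background limit too.

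Ltbp1 and Loxl1 are named although the rule did not pick them, with their values already seen. Ltbp1, which tethers latent TGF-beta to microfibrils, was at 6.48, 6.92 and 6.21 in MPN mice and 8.83 in the control mouse. Loxl1, a lysyl oxidase-like enzyme that acts on elastin, was at 5.78, 6.00 and 5.54 against 7.11. On the higher side, Emilin2, a microfibril-associated glycoprotein, was at 6.19, 7.21 and 6.56 in MPN mice and 5.53 in the control mouse. Fbln7 differed by 0.54, from a control value of 4.91 that lay below the background limit. The median difference of the list was -0.14, nearer to the 0.18 of all genes than the -2.04 of the 9 genes.

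Of 24 other matricellular genes, 23 had a value. On each MPN array 6 of them were at least 2-fold lower and 1 was 2-fold higher, against 5.78% and 1.13% of all genes. Limma's adjusted test passed none, and at an unadjusted p under 0.05, 5 were lower and 0 higher. Fstl1, a secreted SPARC-family glycoprotein, was at 5.55, 6.03 and 5.74 in MPN mice and 9.34 in the control mouse (difference -3.57, SE 0.26, limma adjusted p = 0.0871). Ccn1, an integrin ligand induced by growth factors, was at 7.87, 6.04 and 7.09 against 9.57. Spock3, a proteoglycan related to SPARC, was the 2-fold higher gene, at 6.83, 6.00 and 5.38 in MPN mice and 4.20 in the control mouse. That control value lay below the background limit, so the size of the difference is uncertain. Tgfbi was higher by 0.61. The median of this list was 0.079.

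Receptors and partners of these proteins made a list of 17 genes, all with a value. In it 6 were at least 2-fold lower on each MPN array and 1 was 2-fold higher, against 5.78% and 1.13% of all genes. None passed limma's adjusted test. At an unadjusted p under 0.05, 7 were lower and 1 was higher. Itgb5, an integrin beta chain that pairs with the alpha V chain to bind periostin and vitronectin, was at 4.60, 4.52 and 4.40 in MPN mice and 7.53 in the control mouse (difference -3.02, SE 0.17, limma adjusted p = 0.0871). Its 3 MPN values lay below the background limit, so the size of this difference is uncertain. Itgav, that alpha V chain, was at 6.18, 6.24 and 6.59 against 8.76. Plaur, the urokinase receptor, which binds vitronectin and is also made by neutrophils and monocytes, was at 8.57, 7.80 and 9.002 in MPN mice and 5.86 in the control mouse. Itga4, an alpha chain of fibronectin receptors on leukocytes, was at 5.28, 6.56 and 6.57 against 5.14, a control value just below the background limit. The median of the list was -0.17.

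**Figure D3:**
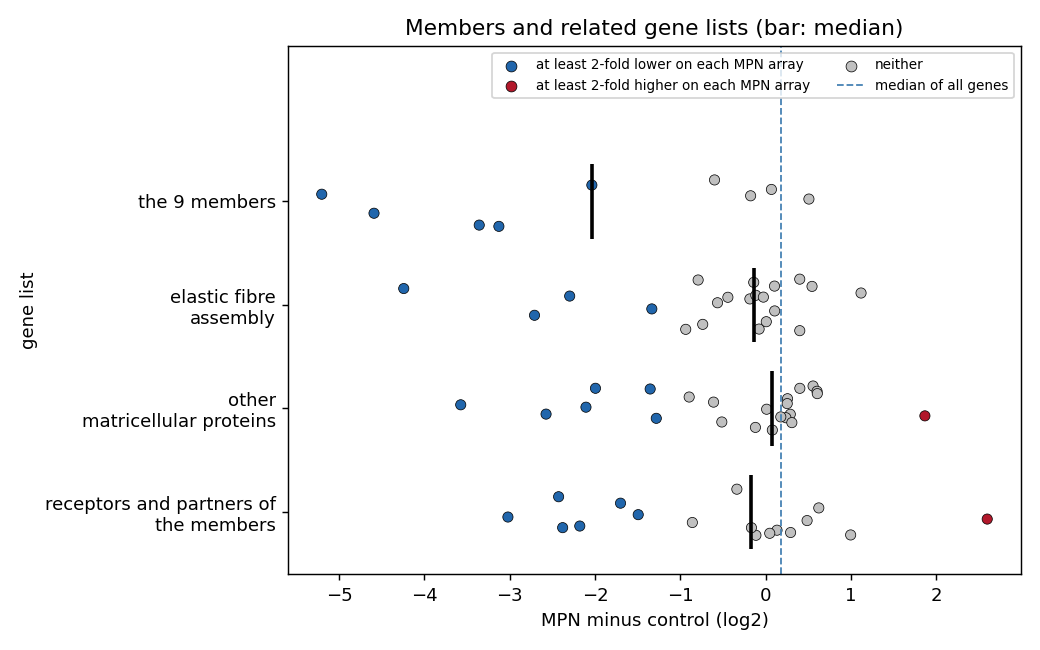
Log2 difference, MPN minus control, of each gene in the 9 measured genes and the 3 related lists, with the list's median as a black bar and the median of all genes as a dashed line. Blue points are at least 2-fold lower and red points at least 2-fold higher on each MPN array, and the 9 genes hold 5 blue points and no red one.

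Markers of other cell types moved on the same arrays. Over all genes, 1.13% were at least 2-fold higher on each MPN array. Of 12 pan-leukocyte markers, 10 were at least 2-fold higher on each MPN array, and the mean log2 level of the list was 9.16, 8.74 and 9.62 in MPN mice and 6.56 in the control mouse. Ptprc, which encodes the CD45 that the sort selected against, was at 10.16, 9.46 and 10.40 against 7.07. Of 12 neutrophil markers, 9 were 2-fold higher on each MPN array, with a mean level of 10.83, 9.81 and 10.99 against 7.70. Within the MPN group mouse 2 was the lowest for both lists, and it was the lowest for Fap, Sparc and Tnc but the highest for Fbln5, while Postn was lowest in mouse 1. Their part in the lower values of the 5 genes was not tested.

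Stromal markers were lower on the MPN arrays, as the 5 genes were. Over all genes, 5.78% were at least 2-fold lower on each MPN array. Of 12 reticular stromal markers, 11 had a value and 9 were at least 2-fold lower on each MPN array, with a mean level of 6.28, 5.54 and 5.79 in MPN mice and 8.71 in the control mouse. Cxcl12, the chemokine that holds blood stem cells in marrow, was at 9.65, 8.39 and 8.75 against 11.42, and thus above the background limit in both groups. All 9 osteoblast and periosteal markers with a value were at least 2-fold lower, with a mean level of 6.13, 6.65 and 6.22 against 9.30. Their part in the values of Postn, Sparc and Fap, which such cells make, was not tested either.

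Megakaryocytes and platelets, endothelial cells and macrophages can make Sparc, Fn1 or thrombospondins. Among 8 megakaryocyte and platelet markers with a value, 0 were 2-fold higher on each MPN array, and the mean level was 5.68, 6.51 and 5.83 in MPN mice and 5.08 in the control mouse. Of these 8, 7 lay above the control on all 3 MPN arrays, as did 46.8% of all genes. The MPN mice differed from each other for 2 leading markers. Pf4 was at 6.29, 8.35 and 5.89 in MPN mice against 5.03, and Ppbp at 4.95, 7.82 and 7.78 against 5.13. Endothelial markers had a mean level of 5.19, 5.18 and 4.85 against 4.61. Of 12, only 1 lay above the background limit in the control mouse, and 7 did by their MPN mean. On all 3 MPN arrays 10 of the 12 lay above the control, as did 46.8% of all genes. Macrophage and monocyte markers had a mean level of 5.59, 5.77 and 5.88 against 5.51, and of 11 with a value, 1 was 2-fold higher and 1 was 2-fold lower on each MPN array. The higher one was Ccr2, a monocyte chemokine receptor, at 7.10, 9.96 and 8.46 in MPN mice and 5.02, below the background limit, in the control mouse. The lower one was Vcam1, an adhesion molecule that stromal cells make too, at 7.87, 5.97 and 8.15 against 11.06. Both were chosen with their values known, and Adgre1, the gene of a macrophage surface receptor, lay below the limit on all 4 arrays (3.69, 3.49 and 3.67 in MPN mice and 3.40 in the control mouse). Smooth muscle and pericyte markers had a mean level of 5.46, 5.50 and 5.47 against 5.67. Of these 12, 2 were at least 2-fold lower on each MPN array, Rgs5 and Abcc9, and 0 were 2-fold higher. The shares over all genes were 5.78% lower and 1.13% higher. The 6 erythroid markers were at 5.66, 6.21 and 5.75 against 5.48. The part of these cell types in the values of the 9 genes was not tested.

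**Figure D4:**
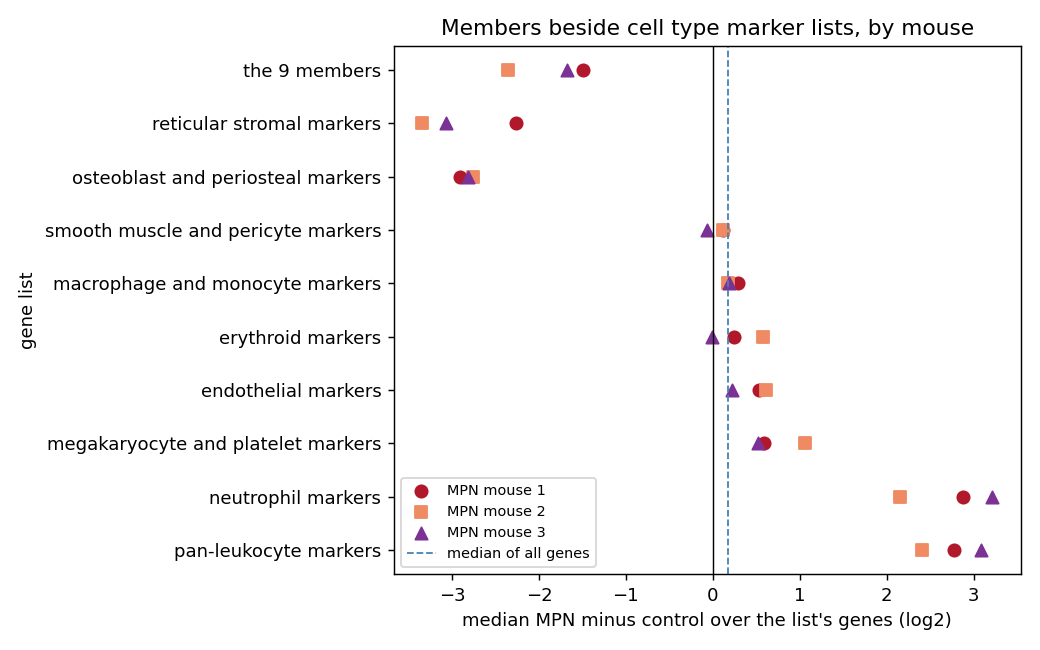
Median log2 difference, MPN minus control, over the 9 measured genes and over each cell type marker list, for each MPN mouse, with the median of all genes as a dashed line. The reticular stromal and osteoblast lists lie below 0 with the 9 genes in each mouse, and the pan-leukocyte and neutrophil lists lie above 2.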

How the data were processed

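Expression was measured on Affymetrix mouse gene arrays, 1 per mouse, from RNA isolated with a Picopure kit and amplified with the NuGen Ovation system, per the labels. The authors deposited log2 values that they had computed with RMA, per the submitters' processing notes. RMA corrects background, brings the arrays to one distribution and summarises probe sets, which compresses differences near background. The sources used here name neither its version nor a genome build. Array medians were 5.15, 5.16 and 5.09 for MPN mice and 5.13 for the control mouse. Precision is limited by there being 4 arrays.

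Of 35556 probe sets, 21789 had 1 gene symbol in the platform's gene table, 1621 had several and 12146 were unnamed here. By gene identifier, 21698 of the 21789 matched the mouse RefSeq table (GRCm38.p6), with 0 symbols changed. The probe set with the highest mean stood for a gene. The limma package (version 3.58.1, under R 4.3.3) was fitted to 19938 genes with a two-sided moderated test. Residual degrees of freedom were 2, from the MPN mice alone, with 1.39 more from the prior. SE and 95% intervals come from this fit, and SD is over the 3 MPN arrays. The limma step was also run on simulated data. There the control array was made to vary like the MPN arrays, so the simulation cannot check that assumption.

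The genes, lists and tests were chosen with earlier results of these data known. Named genes were the 10 listed, the 2 lowest and 2 highest differences of each related list above the background limit, leading markers and the 2 nearest genes by distance. Alternatives left out each MPN mouse, averaged probe sets, removed dim genes, changed the normalization, shifted the arrays to one median, used a trended robust prior, tested each probe set, or asked for a 4-fold difference.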

Additional observations from a re-analysis of the deposited data

How the results depend on the processing

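The count of the 9 genes at least 2-fold lower on each MPN array was 5 under 6 of 6 alternatives of probe set choice, filtering and normalization. Averaging probe sets and removing dim genes could not change this count. Each of the 9 has 1 probe set, and all 9 lie above the background limit in the control mouse. The number was 5 to 6 when 1 MPN mouse was left out, and 4 at 4-fold, a size reached by 1.81% of all genes. Leaving out a mouse can only keep or raise this count, and a 4-fold limit can only keep or lower it. The median difference of the 9 genes ran from -2.31 to -1.59 without 1 mouse. No gene of the 9 passed limma's adjusted test in any of 10 alternatives, with a smallest adjusted p of 0.0834, for Tnc. Over all genes, the number past the threshold was 97 after cyclic loess, 153 with the receptor gene medians of the arrays made equal and 167 with a trended robust prior, and the cause was not tested. Fbln1 turned to -0.098 with cyclic loess and -0.19 with the receptor gene shift, and ran from -0.093 to 0.16 without 1 mouse. Thbs2 ran from -0.31 to 0.080 without 1 mouse. Over all genes, those 2-fold higher on each MPN array numbered 373 to 378 without 1 mouse, against 225. Those 2-fold lower numbered 1321, 1312 and 1756 without MPN mouse 1, 2 and 3, against 1153. With fewer arrays to pass, these counts too can only stay or rise. No paired analysis was possible because the control group is 1 mouse whose label carries no replicate number.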

Other observations

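A pair of related matrix genes varied between the MPN mice more than between the groups, and both were picked out after their values were seen. Thbs1, which encodes thrombospondin 1, a platelet and stromal matricellular protein, was at 7.83, 7.85 and 9.49 in MPN mice 1, 2 and 3 and at 8.13 in the control mouse. As with Fn1, mouse 3 lay above the control mouse and the other MPN mice lay below it. Comp, the cartilage oligomeric matrix protein of the thrombospondin family, was at 7.88, 5.62 and 5.40 in MPN mice and at 7.20 in the control mouse, with mouse 1 alone above it.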
